A study of Mus musculus with 15 samples.

Results

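Carbonic anhydrases are zinc enzymes that interconvert carbon dioxide and water with bicarbonate and a proton. In the intestinal epithelium, cytosolic members supply bicarbonate and protons to transporters in the cell membrane, and membrane-bound members catalyse the same reaction at the cell surface. The set here was every probe whose gene symbol is Car followed by a number, which gave 12 genes of the 16592 genes named, read by 17 of the 25695 probes. Those genes were Car2, Car3, Car4, Car5b, Car6, Car7, Car9, Car11, Car12, Car13, Car14 and Car15. The rule reads gene names and no measured value, although the family itself was picked with earlier results of these data known. Car1, Car5a, Car8 and Car10 had no probe under their names in the annotation used and were not analysed here.

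The arrays measured RNA from jejunal epithelium scraped from the muscle wall of mice in which Brg1, Apc or both had been deleted. Brg1 (gene symbol Smarca4) is the ATPase of a SWI/SNF chromatin remodelling complex, and Apc restrains Wnt signalling by keeping beta-catenin low. Control mice (VillinCreERT2-, n = 4) carried no Cre. Brg1 deficient mice were VillinCreERT2+ Brg1fl/fl (n = 4). Apc deficient mice were VillinCreERT2+ Apcfl/fl Brg1+/+ (n = 3), and Brg1-Apc deficient mice were VillinCreERT2+ Apcfl/fl Brg1fl/fl (n = 4). VillinCreERT2 is a tamoxifen-inducible Cre driven by the villin promoter, which is active in the intestinal epithelium. All 15 mice, controls included, received 4 daily injections of tamoxifen at 80 mg/kg, and tissue was taken at day 4 after induction. Ages, the floxed alleles of the control mice and the Apc alleles of the Brg1 deficient mice are not given in the labels. Brg1 deficient mice are treated here as having intact Apc. Any effect of the activated recombinase itself cannot be told apart from the deletions in comparisons with the Cre-negative controls. Each array was 1 sample, and where nothing says that samples came from separate litters the p-values measure only the spread between these mice.

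Values are deposited log2 expression values. A probe was marked at background in a group when its mean there was no higher than 5.90, the highest of the 15 array medians. The Smarca4 probe read 7.55 ± 0.17 (SD, n = 4) across controls and 8.15 ± 0.26 (n = 3) with Apc deleted alone. Deleting Brg1 left it at 6.20 ± 0.14 (n = 4), or at 6.08 ± 0.06 (n = 4) with Apc deleted too, so the Brg1-deleted groups lay below the others. The position of the Apc probes relative to the deleted part is not known here, and they check nothing. Brg1 deficient replicate 4 stood apart from the rest. The interquartile range of its log2 values was 1.23, against 1.89 to 2.56 on the other 14 arrays, and its mean correlation with its own group was 0.893. Differences of Car4, Car9, Car12 and Car13 described here whose call or sign it changed are also given without it. Replicates 1 and 2 of every group were on one slide and replicates 3 and 4 on another, with 1 Apc deficient array on the second slide.

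Sequences near the start sites of the 3 genes with the clearest differences are shown because Car4 and Car12 moved in opposite directions and Car9 is a known hypoxia target. They are RefSeq promoters on GRCm38.p6, from 250 bases before to 50 bases after the start, read on the gene's own strand, which is the plus strand for all 3 genes. Capitals mark matches to the TCF/LEF core CTTTGA, the element bound by the nuclear partners of beta-catenin, or to the hypoxia response core ACGTG, each searched on both strands. The reverse match of ACGTG reads CACGT as printed, and a CACGTG would hold a match on each strand.
Car4 (chr11:84957504-84957803): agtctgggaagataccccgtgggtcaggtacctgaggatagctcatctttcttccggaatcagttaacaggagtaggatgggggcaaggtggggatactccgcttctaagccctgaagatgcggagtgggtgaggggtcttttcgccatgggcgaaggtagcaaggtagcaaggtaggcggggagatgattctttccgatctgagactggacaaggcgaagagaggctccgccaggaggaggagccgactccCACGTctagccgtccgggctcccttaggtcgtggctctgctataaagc
Car12 (chr9:66713436-66713735): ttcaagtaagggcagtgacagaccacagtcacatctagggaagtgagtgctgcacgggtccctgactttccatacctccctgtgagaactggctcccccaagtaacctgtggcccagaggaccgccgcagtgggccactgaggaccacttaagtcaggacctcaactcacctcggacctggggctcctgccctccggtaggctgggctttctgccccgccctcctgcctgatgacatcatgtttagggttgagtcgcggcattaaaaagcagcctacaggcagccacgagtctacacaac
Car9 (chr4:43506776-43507075): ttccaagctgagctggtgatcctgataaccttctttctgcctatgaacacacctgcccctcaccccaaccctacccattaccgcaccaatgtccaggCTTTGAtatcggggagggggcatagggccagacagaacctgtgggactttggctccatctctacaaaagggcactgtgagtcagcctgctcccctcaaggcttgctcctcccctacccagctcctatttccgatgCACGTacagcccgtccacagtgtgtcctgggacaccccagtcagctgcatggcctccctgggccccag
The Car4 window held 1 reverse ACGTG at position 3 from the start site and no CTTTGA. The Car12 window held neither. The Car9 window held 1 forward CTTTGA at position -153 and 1 reverse ACGTG at position -18. CTTTGA occurred in 16% and ACGTG in 19.6% of 32851 promoters of the same length, so a single match was common. These matches describe letters only. Promoter entries were found for 9 of the 12 genes.

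Of the 17 probes, 7 were above background in all 4 groups. They were the probes of Car4, Car12 and Car13, all 3 probes of Car9, and 1 of the 2 probes of Car2. A further 8 were at background in every group, namely the second Car2 probe, Car3, 2 of the 3 Car5b probes, Car6, Car7, Car11 and Car14. Car15 was above background only in control and the remaining Car5b probe only in Brg1 deficient epithelium. Marking background instead by the 95th percentile of 1305 olfactory and vomeronasal receptor probes (5.87) gave the same counts of 7, 8 and 2.

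**Figure D1:**
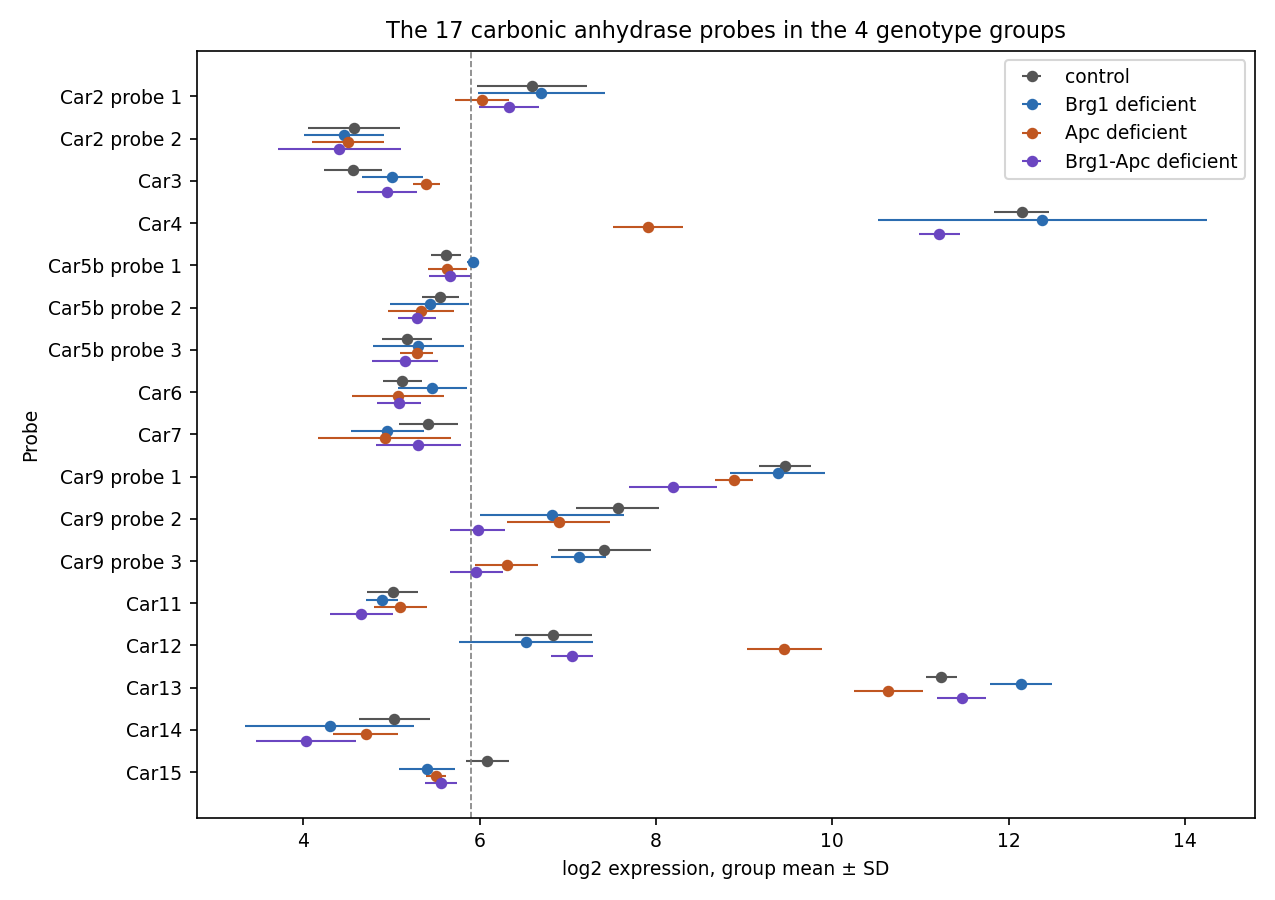
Group means with SD bars (n = 4, 4, 3 and 4 arrays) of log2 expression for each of the 17 carbonic anhydrase probes, with the background mark at 5.90 as a dashed line. Car4 and Car12 are the probes whose Apc deficient mean stands away from the other 3 groups, and 8 probes stay left of the line in every group.

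Differences between genotypes were tested with limma across all 25695 probes, and a probe passed when its Benjamini-Hochberg adjusted p was under 0.05. Apc deficient against control epithelium gave 4 passing carbonic anhydrase probes, 2 higher and 2 lower, where 13.2% of all probes passed (7.15% higher and 6.05% lower). Against Apc deficient epithelium, Brg1-Apc deficient epithelium had 2 higher and 1 lower carbonic anhydrase probes, where 7.18% of all probes passed (3.21% higher and 3.97% lower). Brg1 deficient against control epithelium gave 1 probe, which was higher, where 2.81% of all probes passed (0.685% higher and 2.12% lower). Brg1-Apc deficient against control epithelium gave 3 lower probes, all of 1 gene, where 6.11% passed. Brg1-Apc deficient against Brg1 deficient epithelium gave 2 lower probes, where 5.39% passed. Apc deficient against Brg1 deficient epithelium gave 1 higher and 2 lower probes, where 18.5% passed. The interaction term, which asks whether the effect of deleting Brg1 differed between Apc-deleted and Apc-intact epithelium, gave 1 probe, where 0.876% passed. With 17 probes, several of them of 1 gene, nothing is read from these counts about the family, and the results that follow are about single genes. The median log2 difference over the 17 probes was -0.32 in Apc deficient against control epithelium, beside -0.02 over all probes, and -0.10 in Brg1-Apc deficient against Apc deficient epithelium, beside 0.03 over all probes. Several comparisons share groups: control enters 3 of the pairwise comparisons, and Apc deficient 3.

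Car4 was low in Apc deficient epithelium and nearer the control level when Brg1 was deleted as well. Car4 is a carbonic anhydrase tethered by a lipid anchor to the outer face of the cell membrane. The 4 control arrays read 12.61, 12.07, 11.97 and 11.95 log2 units. The 3 Apc deficient arrays read 7.48, 7.96 and 8.27, all below every other array of the study. The 4 Brg1-Apc deficient arrays read 10.94, 11.25, 11.16 and 11.50, below every control array and above every Apc deficient array. In Brg1 deficient epithelium 3 arrays read 13.52, 13.50 and 12.89, above every control array, while replicate 4 read 9.62, below every control and every Brg1-Apc deficient array.

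Car4 fell by 4.24 ± 0.64 (SE) on the log2 scale, or 18.9-fold, in Apc deficient against control epithelium (adjusted p = 0.000275). It was 3.31 ± 0.64 log2 units, or 9.92-fold, higher in Brg1-Apc deficient than in Apc deficient epithelium (adjusted p = 0.00448). Both differences exceeded the spread between replicates and passed in each of the 15 fits that left out 1 array. Within the first slide they were -4.62 and 3.38, and within the second, with its single Apc deficient array, -3.68 and 3.06. The order of group means was Brg1 deficient (12.38 ± 1.86 SD), control (12.15 ± 0.31), Brg1-Apc deficient (11.21 ± 0.23) and Apc deficient (7.91 ± 0.40). Among neighbours in that order only the last pair differed past the test: Brg1 deficient minus control was 0.23 (95% interval -1.01 to 1.48, adjusted p = 0.897) and Brg1-Apc deficient minus control was -0.93 (-2.18 to 0.32, adjusted p = 0.460).

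Several calls of Car4 turned on Brg1 deficient replicate 4. Without it Car4 rose by 1.15 ± 0.24 log2 units, or 2.23-fold, in Brg1 deficient against control epithelium (adjusted p = 0.0124). Brg1-Apc deficient minus control kept its value of -0.93 and then passed (adjusted p = 0.0114), with an SE of 0.22 in place of 0.59. That comparison does not use the array, but all groups share an estimate of the spread. Brg1-Apc deficient minus Brg1 deficient was then -2.09 log2 units (adjusted p = 0.000112), against -1.17 with all arrays (adjusted p = 0.349). The interaction was 3.08 ± 0.87 with all arrays (adjusted p = 0.117) and 2.16 ± 0.34 without replicate 4 (adjusted p = 0.00602). Within the first slide, which lacks that array, Brg1 deficient minus control was 1.17, and within the second it was -0.70. Apc deficient minus Brg1 deficient was -4.48 with all arrays (adjusted p = 7.57e-05) and -5.40 without replicate 4 (adjusted p = 2.13e-09), so the low level in Apc deficient epithelium did not depend on it.

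**Figure D2:**
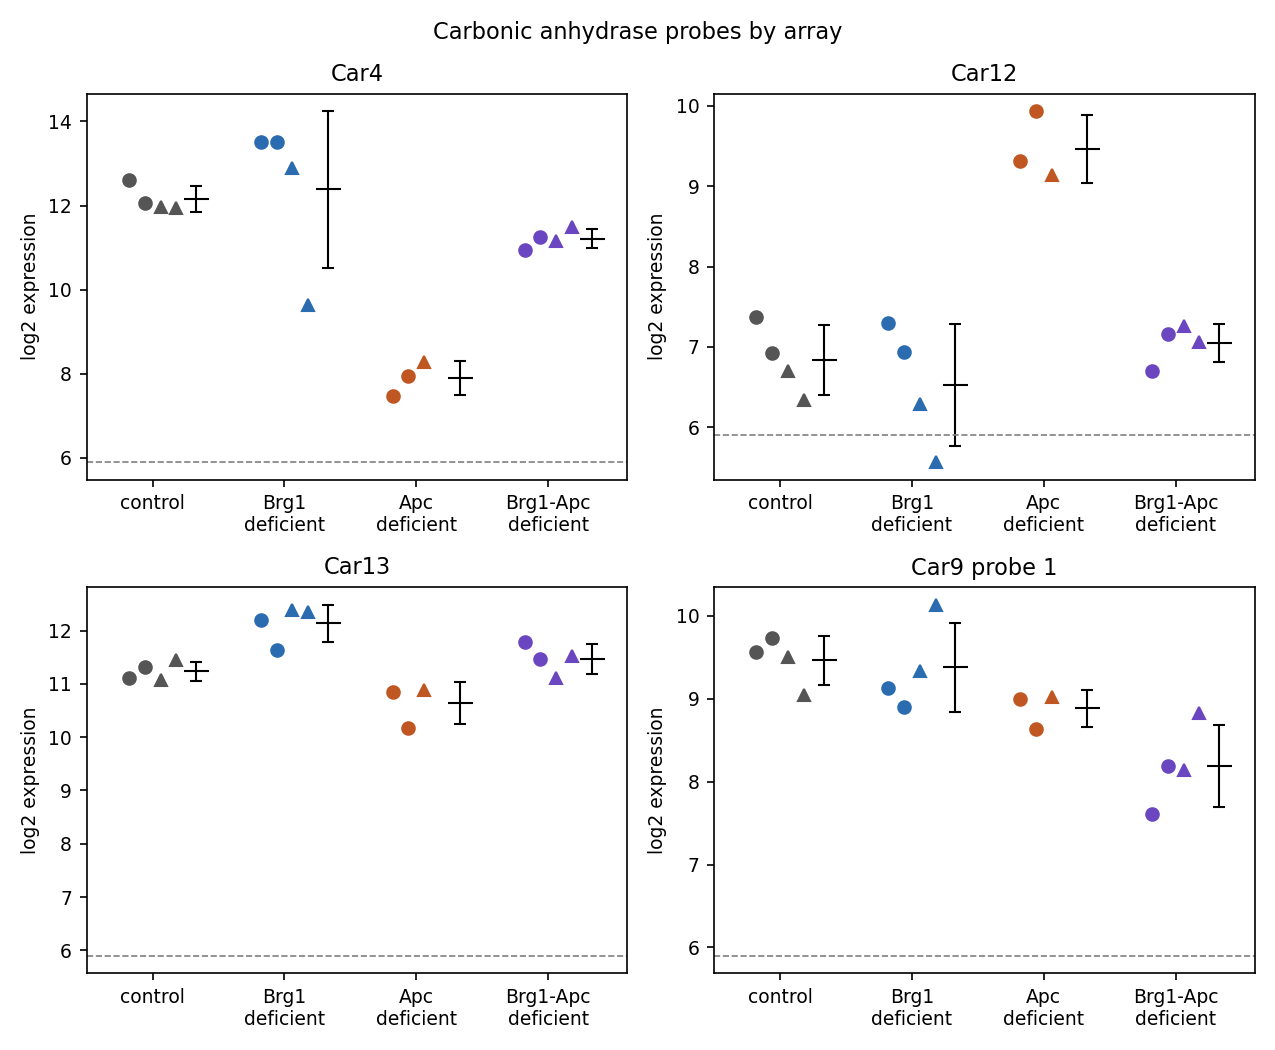
Log2 expression of Car4, Car12, Car13 and the brightest Car9 probe on each array, by genotype group and in replicate order, with circles for the first slide, triangles for the second, black bars for the group mean ± SD and the background mark of 5.90 as a dashed line (axes start above 0). The 3 Apc deficient arrays lie below all others for Car4 (7.48 to 8.27) and above all others for Car12 (9.13 to 9.93), and Brg1 deficient replicate 4 reads 9.62 for Car4.

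Car12 showed the opposite pattern: it was high in Apc deficient epithelium and near the control level in the other groups. Car12 is a transmembrane carbonic anhydrase with its active site outside the cell. Apc deficient arrays read 9.31, 9.93 and 9.13 log2 units. Control arrays read 7.38, 6.92, 6.70 and 6.34, and Brg1-Apc deficient arrays 6.71, 7.17, 7.26 and 7.06. Every Apc deficient array lay above every other array, while the control and Brg1-Apc deficient arrays overlapped. Brg1 deficient arrays read 7.30, 6.94, 6.29 and 5.57, with replicate 4 again the lowest and below the background mark.

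Car12 rose by 2.62 ± 0.35 log2 units, or 6.16-fold, in Apc deficient against control epithelium (adjusted p = 0.000103). It fell by 2.41 ± 0.35 log2 units, or 5.31-fold, from Apc deficient to Brg1-Apc deficient epithelium (adjusted p = 0.000462). Both calls held in each of the 15 fits with 1 array left out. Within the first slide the differences were 2.47 and -2.68, and within the second 2.61 and -1.97. The group means ran from Apc deficient (9.46 ± 0.42 SD) through Brg1-Apc deficient (7.05 ± 0.24) and control (6.84 ± 0.44) to Brg1 deficient (6.53 ± 0.76). Only the first step passed. Brg1-Apc deficient minus control was 0.21 (95% interval -0.47 to 0.89, adjusted p = 0.824), and Brg1 deficient minus control was -0.31 (-0.99 to 0.37, adjusted p = 0.701). Without Brg1 deficient replicate 4 that last difference was 0.01 (-0.58 to 0.60, adjusted p = 0.995), so its size and sign rested on that array.

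Car12 was also the single carbonic anhydrase probe to pass the interaction test, at -2.10 ± 0.47 log2 units (adjusted p = 0.0449). In words, deleting Brg1 went with a change of -2.41 where Apc was deleted and with one of -0.31, which did not pass, where Apc was intact. Leaving out Brg1 deficient replicate 4 turned the -0.31 into 0.01. This call was narrow. It passed in 1 of the 15 fits with an array left out, the one without Brg1 deficient replicate 4, where it was -2.42 (adjusted p = 0.00652), and the values over the 15 fits ran from -2.42 to -1.84 with adjusted p up to 0.168. Within slides the interaction was -2.65 and -1.38.

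**Figure D3:**
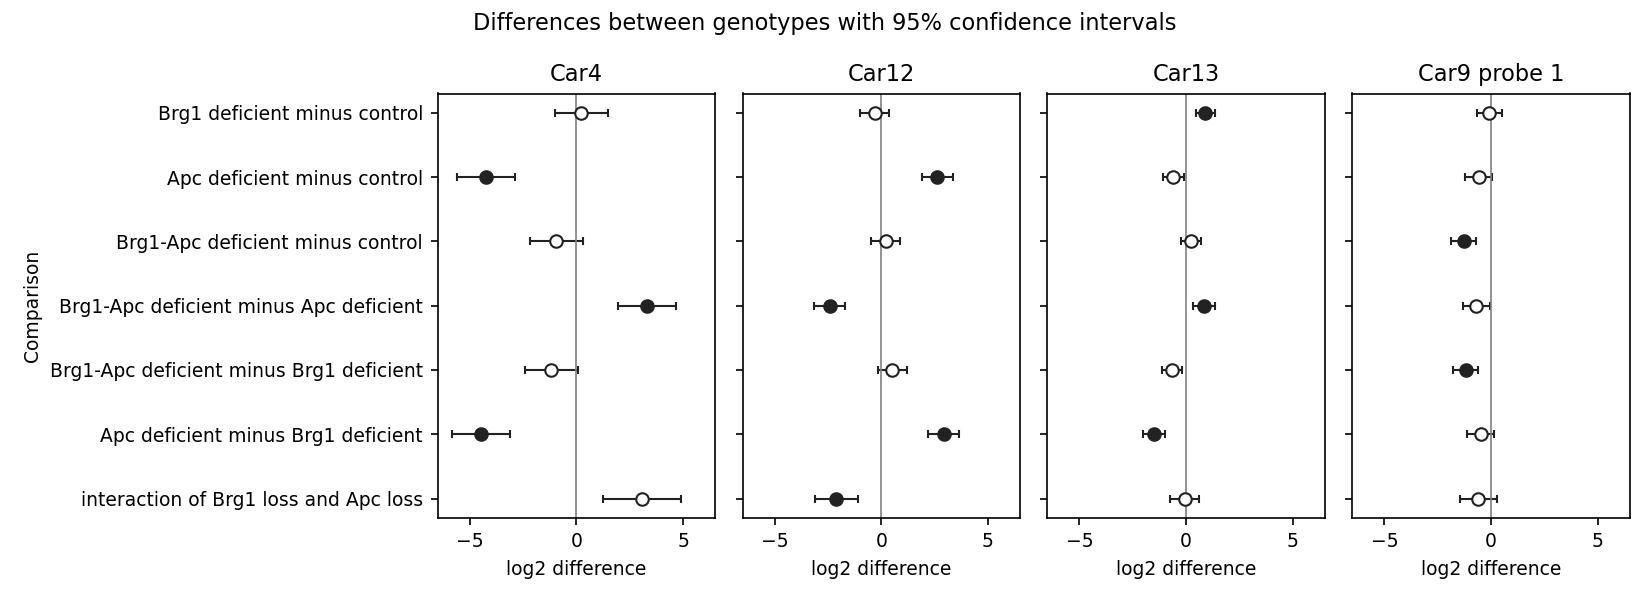
Log2 differences with 95% confidence intervals for Car4, Car12, Car13 and the brightest Car9 probe in the 6 pairwise comparisons and the interaction, with filled circles where the adjusted p was under 0.05. Car4 and Car12 mirror each other in the comparisons with the Apc deficient group (-4.24 and 2.62 against control), and the intervals of Car4 are the widest.

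Car13, a cytosolic carbonic anhydrase, was bright on every array and differed less between groups. Control arrays read 11.11, 11.32, 11.07 and 11.45 log2 units. Brg1 deficient arrays read 12.20, 11.63, 12.38 and 12.35. Every Brg1 deficient array lay above every control array, replicate 4 among them. Apc deficient arrays read 10.85, 10.18 and 10.88, below every control array, and Brg1-Apc deficient arrays read 11.78, 11.46, 11.10 and 11.52, which overlapped control.

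Car13 rose by 0.90 ± 0.22 log2 units, or 1.87-fold, in Brg1 deficient against control epithelium (adjusted p = 0.0345). It was 0.83 ± 0.24 higher in Brg1-Apc deficient than in Apc deficient epithelium (adjusted p = 0.0447) and fell by 1.504 ± 0.24 from Brg1 deficient to Apc deficient epithelium (adjusted p = 0.000206). The call against control passed in 9 of 15 fits with an array left out and was lost without any 1 of the 4 controls, without Brg1 deficient replicate 3 (0.82, adjusted p = 0.110) and without Brg1 deficient replicate 4 (0.84, adjusted p = 0.0676). The call of Brg1-Apc deficient against Apc deficient epithelium passed in 6 of 15, and that of Apc deficient against Brg1 deficient in 15 of 15. Without Apc deficient replicate 2 the difference of 0.83 was 0.60 (adjusted p = 0.279). Within the first slide the Brg1 deficient and control groups differed by 0.70 and within the second by 1.11.

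The Car13 group means ran from Brg1 deficient (12.14 ± 0.35 SD) through Brg1-Apc deficient (11.47 ± 0.28) and control (11.24 ± 0.18) to Apc deficient (10.64 ± 0.40), and no 2 neighbours in that order differed past the test. Brg1-Apc deficient minus Brg1 deficient was -0.67 (adjusted p = 0.0977), Brg1-Apc deficient minus control 0.23 (adjusted p = 0.680) and Apc deficient minus control -0.60 (95% interval -1.10 to -0.09, adjusted p = 0.124). The interaction was -0.08 (-0.76 to 0.61, adjusted p = 0.966). In the reference annotation Car13, Car1, Car3 and Car2 are consecutive coding genes on mouse chromosome 3. Car3 was at background in every group. Of the 2 Car2 probes, 1 was at background and 1 had group means from 6.03 to 6.70, and neither passed in any comparison.

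Car9 was lowest in Brg1-Apc deficient epithelium, on all 3 of its probes. Car9 is a transmembrane carbonic anhydrase whose gene is a classical target of hypoxia-inducible factor. On the brightest probe the control arrays read 9.57, 9.74, 9.50 and 9.04 log2 units. The Brg1-Apc deficient arrays read 7.61, 8.19, 8.14 and 8.83, all below every control array. Brg1 deficient arrays read 9.14, 8.91, 9.34 and 10.14, overlapping control, with replicate 4 the highest. Apc deficient arrays read 9.0, 8.63 and 9.02, below all 4 controls and overlapping the highest Brg1-Apc deficient array.

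In Brg1-Apc deficient against control epithelium Car9 fell by 1.27 ± 0.28, 1.59 ± 0.36 and 1.45 ± 0.26 log2 units on its 3 probes, or 2.42-, 3.00- and 2.74-fold (adjusted p = 0.0107, 0.0126 and 0.00295). All 3 calls held in each of the 15 fits with an array left out. On probes 2 and 3, which are dimmer, the Brg1-Apc deficient means were 5.98 and 5.96, just above the background mark. On the brightest probe the fall was 1.76 within the first slide and 0.79 within the second.

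Against Brg1 deficient epithelium the Brg1-Apc deficient group was different by -1.19 on probe 1, the brightest (adjusted p = 0.0162), and by -1.16 on probe 3 (adjusted p = 0.0122). Probe 2, at -0.84, did not pass (adjusted p = 0.234) but did without Brg1 deficient replicate 4 (-1.14, adjusted p = 0.0360). The call of probe 1 was lost without Brg1-Apc deficient replicate 1 (-0.996, adjusted p = 0.0622). The probes disagreed on Apc deficient against control epithelium, where probe 3 fell by 1.11 (adjusted p = 0.0128, lost without Apc deficient replicate 3 at -0.91 and adjusted p = 0.0770) while probe 1, at -0.58, and probe 2, at -0.67, did not pass (adjusted p = 0.270 and 0.338). Brg1-Apc deficient minus Apc deficient was -0.69 on probe 1 (adjusted p = 0.197), so those neighbours in the order of means were not separated. On that probe control (9.46 ± 0.30 SD) came first, followed by the Brg1 deficient mean (9.38 ± 0.54), the Apc deficient mean (8.88 ± 0.22) and the Brg1-Apc deficient mean (8.19 ± 0.50).

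Among 17 measured targets of hypoxia-inducible factor on a list without carbonic anhydrases, 0 rose and 0 fell in Brg1-Apc deficient against control epithelium by limma at an adjusted p under 0.05, with a median log2 difference of -0.18 and a range from -0.59 to 0.57. The median over all genes was 0.03. At an unadjusted p under 0.05 the counts were 0 higher and 1 lower. As 6.11% of all probes passed in that comparison, about 1 of 17 at that share, a count of 0 says little. In Apc deficient against control epithelium, where Car9 probe 3 passed, 2 of these targets rose and 1 fell (median -0.21), beside 13.2% of all probes called. In Brg1-Apc deficient against Apc deficient epithelium 2 rose and 2 fell (median 0.06), beside 7.18%. The targets did not move in 1 direction in either comparison.

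The remaining carbonic anhydrases gave little signal. Car3, a cytosolic enzyme of muscle and fat with weak catalytic activity, passed as higher in Apc deficient than in control epithelium (adjusted p = 0.0305). Its control arrays read 4.79, 4.45, 4.87 and 4.15 and its Apc deficient arrays 5.26, 5.37 and 5.56, all of them below the background mark, so no fold is given, and the call passed in 10 of 15 fits with an array left out. It was lost without any 1 of the 3 Apc deficient arrays and without control replicates 2 and 4. Car15, a membrane-anchored enzyme, read 6.09 ± 0.25 (SD) across controls, and 5.41 ± 0.32, 5.51 ± 0.11 and 5.56 ± 0.18 with Brg1, Apc or both deleted. The differences from control of -0.68, -0.58 and -0.53 did not pass (adjusted p = 0.0700, 0.0825 and 0.130), although every control array, from 5.80 to 6.34, lay above every array of the other groups.

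Car2, the cytosolic enzyme of high activity found in many epithelia, was read by 2 probes that disagreed in level. One read 6.60 across controls and 6.70, 6.03 and 6.34 on average with Brg1, Apc or both deleted, with arrays from 5.74 to 7.55, and the other was at background. Neither passed in any comparison. Car14, a transmembrane enzyme, averaged 5.03 in control and 4.03 in Brg1-Apc deficient epithelium, both at background (adjusted p = 0.160). Mitochondrial Car5b, secreted Car6, cytosolic Car7 and Car11, a related protein without catalytic activity, were at background apart from 1 Car5b probe at 5.93 in Brg1 deficient epithelium, and none passed.

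For each gene with a passing probe, the 3 genes with the most similar pattern were taken as those with the smallest root mean square difference of log2 values over the 15 arrays, after centring each gene on its mean, among 16591 other genes. For Car4 these were Slc5a8 (0.760 log2 units), a sodium-coupled monocarboxylate transporter, Naaladl1 (0.832) and Sgpl1 (0.835). Slc5a8 means were 10.68 for controls and 10.21, 6.79 and 9.62 with Brg1, Apc or both deleted, low in the same group as Car4. For Car12 they were Tlr2 (0.313), an innate immune receptor, Ddit4 (0.413) and Surf2 (0.415). Tlr2 averaged 6.66, 6.30, 8.89 and 6.87 in the same order of groups, high in Apc deficient epithelium alone. For Car13 they were Hint3 (0.215), Galt (0.246), an enzyme of galactose metabolism, and Rnf185 (0.250). For Car9 they were C130074G19Rik (0.337), Edaradd (0.378) and Zhx3 (0.380), and for Car3 they were Extl3 (0.195), Snapin (0.232) and Sde2 (0.233). These distances are descriptions over arrays that share genotype groups, and a gene with a small spread can have a small distance to many others.

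Carbonic anhydrases work beside transporters of bicarbonate, chloride and protons, of which 24 of 30 listed genes were measured, each by its brightest probe. In Apc deficient against control epithelium 1 of the 24 rose and 3 fell, with a median of -0.12 beside -0.03 over all genes and 13.2% of all probes called. In Brg1-Apc deficient against Apc deficient epithelium 2 rose and 0 fell (median 0.14 beside 0.05, with 7.18% of all probes called), and in Brg1 deficient against control epithelium 0 rose and 1 fell (median 0.05 beside 0.03, with 2.81% called). These counts are close to the shares over all probes, and nothing is read from them about the transport genes as a group. At background in all 4 groups were 14 of the 24 genes. Slc26a3, an apical chloride-bicarbonate exchanger, was among them, at 4.96 to 5.27 over the group means, and was named after its values were seen.

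Slc26a6, another apical exchanger of chloride and bicarbonate, was, like Car4, lowest in Apc deficient epithelium. Its Apc deficient arrays read 9.73, 7.99 and 9.87 log2 units, against 12.12, 12.13, 12.95 and 12.29 in control. In Brg1-Apc deficient epithelium it read 12.62, 11.80, 12.68 and 12.98, and in Brg1 deficient epithelium 11.72, 12.64, 13.45 and 12.75. The 3 Apc deficient arrays lay below all others, and the remaining groups overlapped. Slc26a6 fell by 3.18 ± 0.44 log2 units, or 9.06-fold, in Apc deficient against control epithelium (adjusted p = 0.000143). It was 3.32 ± 0.44 higher in Brg1-Apc deficient than in Apc deficient epithelium (adjusted p = 0.00025). Its interaction was 3.06 ± 0.60 (adjusted p = 0.0273) and passed in 8 of 15 fits with an array left out.

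Slc9a3r1, a scaffold for apical ion transporters, read 12.53, 11.58 and 12.59 log2 units on the Apc deficient arrays against 13.83 to 14.19 in control. It fell by 1.74 ± 0.27 (adjusted p = 0.000382) and was 0.94 ± 0.27 higher in Brg1-Apc deficient than in Apc deficient epithelium (adjusted p = 0.0483, passing in 4 of 15 fits with an array left out). Slc12a2, the basolateral sodium, potassium and chloride cotransporter, moved the other way. It read 13.49, 13.64 and 13.95 in Apc deficient, 11.73 to 12.03 in control and 10.50, 10.19, 8.49 and 10.24 in Brg1 deficient epithelium, so these 3 groups did not overlap. It rose by 1.85 ± 0.37 in Apc deficient against control epithelium (adjusted p = 0.00239) and fell by 1.99 ± 0.34 in Brg1 deficient against control epithelium (adjusted p = 0.00343). In each of these comparisons 2 of its 4 probes passed. Brg1-Apc deficient minus Apc deficient was -1.24 on the brightest probe (adjusted p = 0.0513). Over the 4 Slc12a2 probes that difference ran from -2.46 to 0.06, and 1 of them passed.

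Slc16a3, a monocarboxylate and proton transporter, was at least 1.57-fold lower in Apc deficient than in control epithelium (adjusted p = 0.0273) on 1 of 3 probes, and passed in 9 of 15 fits with an array left out. Its mean was 6.65 in control and 5.53, at background, in Apc deficient epithelium, so that the fold is a bound, taken with each Apc deficient array at the background mark or at its own value where higher. The other genes with the smallest p-values did not pass. Slc9a3r2 was at -1.18 in Apc deficient against control epithelium (adjusted p = 0.0934). Ano1 was at -0.49 and Slc4a2 at 0.62 in Brg1-Apc deficient against Apc deficient epithelium (adjusted p = 0.176 and 0.203). Slc4a10 was at 0.40 and Slc26a4 at 0.29 in Brg1 deficient against control epithelium (adjusted p = 0.300 and 0.614), and Slc4a10, Slc26a4 and Ano1 were at background in all 4 groups.

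**Figure D4:**
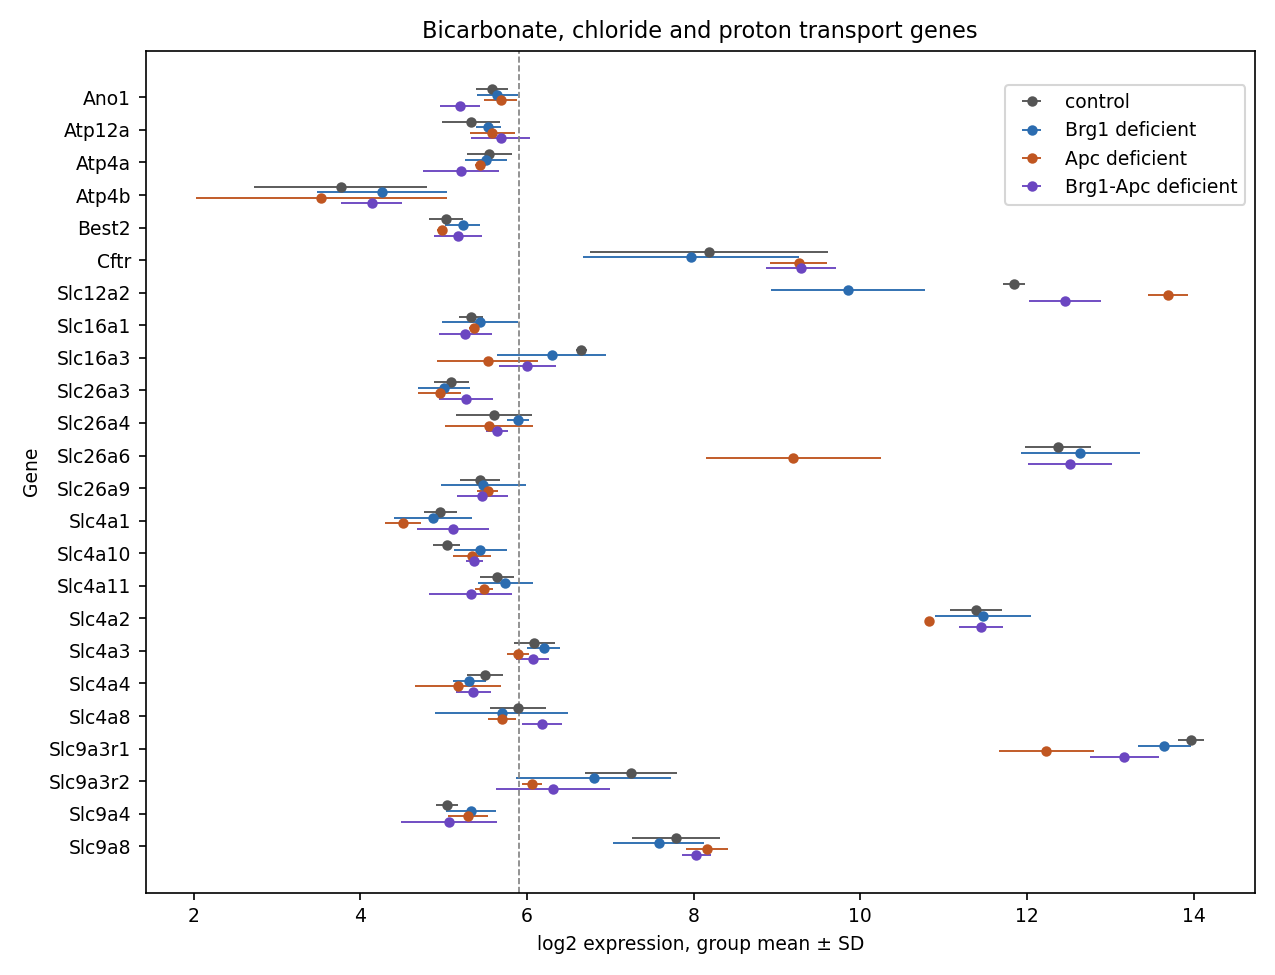
Group means with SD bars (n = 4, 4, 3 and 4 arrays) of log2 expression for the 24 measured transport genes, with the background mark at 5.90 as a dashed line. Slc26a6 and Slc9a3r1 have their lowest means in Apc deficient epithelium (9.20 and 12.23), and Slc12a2 has its highest there (13.69).

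Markers of several cell types moved with the same groups as Car4 and Car12. In bulk tissue, fewer cells of a type and less RNA per cell cannot be told apart. Of 16 measured markers of absorptive enterocytes, 0 rose and 14 fell in Apc deficient against control epithelium, with a median of -1.78 and a range from -4.48 to -0.02, where 6.05% of all probes were called lower. In Brg1-Apc deficient against Apc deficient epithelium 4 rose and 0 fell, with a median of 0.94 and a highest value of 2.66, where 3.21% of all probes were called higher. That count of 4 became 8 without Brg1 deficient replicate 4 and 0 without Apc deficient replicate 2. Against control, Brg1-Apc deficient epithelium had 0 of these markers higher and 2 lower (median -0.73), where 6.11% of all probes passed. Brg1 deficient epithelium had 0 higher and 1 lower against control (median -0.23), where 2.12% of all probes were called lower. The mean over these markers ran from 11.26 to 11.46 on control arrays and from 10.26 to 11.16, 8.76 to 9.98 and 10.04 to 10.79 on arrays with Brg1, Apc or both deleted. The number of them above background was 14, 14, 11 and 13 in the same order. The Car4 difference of -4.24 lay within the range of the enterocyte markers in the first comparison, and its difference of 3.31 lay above their highest value in the second. The lowest enterocyte mean among the Brg1 deficient arrays, 10.26, was that of replicate 4, the array with the low Car4 value.

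Of 16 crypt and Wnt target markers, 12 rose and 0 fell in Apc deficient against control epithelium (median 1.75, highest 2.54), where 7.15% of all probes were called higher. In Brg1-Apc deficient against Apc deficient epithelium 0 rose and 7 fell (median -1.21), where 3.97% were called lower. In Brg1 deficient against control epithelium 0 rose and 6 fell, where 2.12% were called lower. The mean over them ran from 7.38 to 7.59 on control arrays and from 6.18 to 7.05, 8.96 to 9.01 and 7.59 to 8.06 on those with Brg1, Apc or both deleted, and 9, 9, 14 and 13 of them were above background. Car12, at 2.62, lay just above the highest of these markers in Apc deficient epithelium. Slc12a2 is on this list as well as on the transport list. The part of these cell types in the Car4 and Car12 differences was not tested.

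Markers of T cells and intraepithelial lymphocytes, the immune cells that sit between enterocytes, were low in the same group as Car4. Of 10 measured, 0 rose and 5 fell in Apc deficient against control epithelium (median -1.39), where 6.05% of all probes were called lower, and 5 fell in each of the 15 fits with an array left out. In Brg1-Apc deficient against Apc deficient epithelium 4 rose and 0 fell (median 0.76), where 3.21% were called higher. That 4 became 0 without Apc deficient replicate 2 and 2 without Apc deficient replicate 3. The mean over them ran from 7.03 to 7.88 on control arrays and from 7.13 to 7.98, 6.09 to 6.58 and 6.93 to 7.43 on arrays with Brg1, Apc or both deleted, with 6, 6, 5 and 6 of the 10 above background.

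Of 13 goblet and tuft cell markers, 0 rose and 5 fell in Apc deficient against control epithelium (median -0.42). In that comparison 7.15% of all probes were called higher and 6.05% lower. In Brg1-Apc deficient against Apc deficient epithelium 2 rose and 0 fell (median 0.36), where 3.21% of all probes were called higher. The 5 became 3 without control replicate 4, Apc deficient replicate 2 or Apc deficient replicate 3, and the 2 became 1 without Apc deficient replicate 2. Their mean ran from 9.17 to 9.41 on control, 8.84 to 9.38 on Brg1 deficient, 8.26 to 8.85 on Apc deficient and 8.82 to 9.19 on Brg1-Apc deficient arrays, with 10, 9, 8 and 9 of the 13 above background. Of 14 enteroendocrine markers, 1 rose and 5 fell in Apc deficient against control epithelium (median -0.75), beside the same shares of 7.15% higher and 6.05% lower. In Brg1-Apc deficient against control epithelium 1 rose and 6 fell (median -0.89), where 6.11% of all probes passed. Their mean ran from 7.73 to 8.03 on control, 7.20 to 8.06 on Brg1 deficient, 7.22 to 7.41 on Apc deficient and 7.15 to 7.44 on Brg1-Apc deficient arrays, with 13, 12, 11 and 11 of the 14 above background. Of 5 Paneth cell markers 2 rose and 0 fell in Apc deficient against control epithelium (median 0.92), where 7.15% of all probes were called higher. The 2 became 1 without control replicate 1 or 2 or without Apc deficient replicate 1 or 3. The part of these cell types in the carbonic anhydrase differences was not tested.

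Cell types outside the epithelium also express carbonic anhydrases. Capillary endothelium is known for Car4, and red cells for Car1 and Car2. The mean over 11 endothelial markers ran from 5.45 to 6.68 on control and from 5.71 to 6.27 on Apc deficient arrays, with 7 and 4 of the 11 above background. In that comparison 1 rose and 0 fell (median -0.49), where 7.15% of all probes were called higher and 6.05% lower. Nothing is read from that count. The mean over 7 red cell markers stayed between 5.31 and 6.31 on all arrays, with 1 of 7 above background in each group. Pancreatic acinar markers reached a mean of 10.7 on control replicate 4. They read 5.87 to 6.03 on control replicates 1 to 3 and at most 6.22 on any array of the other groups. The part of endothelium and pancreas in the carbonic anhydrase values was not tested.

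**Figure D5:**
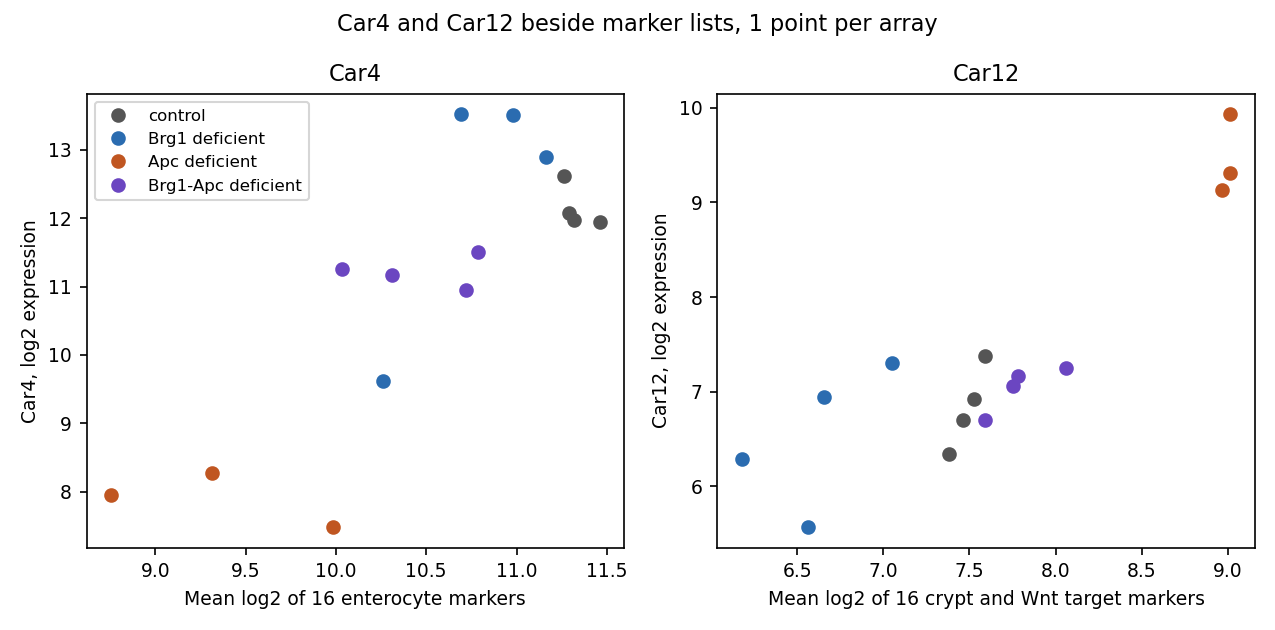
Left, Car4 log2 expression against the mean log2 level of 16 enterocyte markers. Right, Car12 against the mean of 16 crypt and Wnt target markers, with 1 point per array coloured by genotype. The Apc deficient arrays hold the lowest Car4 values (7.48 to 8.27) with enterocyte means of 8.76 to 9.98, and the highest Car12 values with crypt marker means of 8.96 to 9.01.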

How the data were processed

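Total RNA from jejunal scrapes of 15 mice was labelled in 1 colour and hybridised to Illumina bead arrays, 1 per mouse, per the labels' protocols. The authors deposited log2 expression values for 25695 probes, used as they stand; how they were normalized is not given in the sources used. The platform annotation gave 1 symbol for 23976 probes (16592 genes) and none for 1719.

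Genotype means were estimated from the 15 arrays together (11 residual degrees of freedom) with limma 3.58.1 in R 4.3.3, with Benjamini-Hochberg adjustment over all probes at 0.05. Differences are of log2 values, and fold changes are those differences converted to the linear scale, higher over lower. Precision is limited by the number of arrays. The fit was tested on simulated data with independent noise of equal spread in every group. Slide effects and outlying arrays were not simulated, so that test does not cover them.

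The members and gene lists were chosen with earlier results of these data known. Every member was named; the transport genes named have the 5 smallest p-values in 3 comparisons, and a gene with several probes on a list was read by its brightest. Alternatives were each array left out, array weights, a trended robust prior, a fit of only the groups compared, a filter at the median level, median centring, quantile normalization, either slide by itself, and the slide or the replicate number as a block. The same alternatives for transport genes and lists were chosen after seeing the data.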

Additional observations from a re-analysis of the deposited data

Results flagged for a closer look

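In 3 of 51 groups of 4 arrays, 1 carbonic anhydrase reading lay far from the other 3 by Dixon's criterion, and chance gives about 1 in 20 such groups. Car4 on Brg1 deficient replicate 4 read 9.62 log2 units where the other 3 Brg1 deficient arrays read 12.9 to 13.5. Car6 on Brg1-Apc deficient replicate 2 read 5.46 where the others read 4.94 to 4.98, and Car11 on Brg1-Apc deficient replicate 1 read 4.12 where the others read 4.79 to 4.87. All Car6 and Car11 values are at background.

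The effect of Brg1 deletion on Car12 differed between Apc-deleted and Apc-intact epithelium by -2.10 log2 units in the limma interaction test (adjusted p = 0.0449). The call was not kept in 14 of the 15 fits that left out 1 array.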

How the results depend on the processing

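None of the 17 passing differences reversed under any alternative run. Of them, 16 kept their call with slide as a block, 15 with the replicate block, 13 on slide 1 alone, 2 on slide 2 alone, 16 with quantile normalization, 15 with median centring, 13 of 16 when only the groups compared were fitted, 17 with a trended robust prior and 16 with array weights. Counts of passing carbonic anhydrase probes moved as follows, and under every alternative not named for a comparison its count changed by at most 1. For Brg1 deficient against control the count of 1 became 0 on either slide alone, with only the groups compared and with array weights, 2 with quantile normalization or median centring, and 0 to 2 with an array left out. For Apc deficient against control the 4 became 1 on slide 2 alone and 2 to 4 with an array left out, 2 being without Apc deficient replicate 3. For Brg1-Apc deficient against control the 3 became 0 on slide 2 alone, 5 with only the groups compared (Car4 and Car14 added) and 3 to 4 with an array left out. For Brg1-Apc deficient against Apc deficient the 3 became 0 on slide 2 alone and 2 to 3 with an array left out. For Brg1-Apc deficient against Brg1 deficient the 2 became 0 on slide 2 alone, 1 with only the groups compared and 1 to 4 with an array left out, 4 being without Brg1 deficient replicate 4. For Apc deficient against Brg1 deficient the 3 became 1 on slide 2 alone and 3 to 4 with an array left out. For the interaction the 1 became 0 on slide 2 alone, with quantile normalization and with median centring, 2 with array weights and 0 to 2 with an array left out. Slide 2 alone has 7 arrays with 1 Apc deficient array, whose spread is assumed to equal that of the other groups. It also holds Brg1 deficient replicate 4. Comparisons without the Apc deficient group lost calls there too, and the cause of the losses was not tested. Whether the replicate numbers pair the arrays is not settled here. Of 21 same-number pairs 8 correlated over 0.1, and 6 of 15 arrays correlated best with their own number. The median correlation was 0.061 for same-number pairs and -0.006 for other pairs. Arrays with the same number also share a slide, so these correlations cannot exclude pairing. In limma the replicate block ended 2 calls, Car3, Apc deficient minus control (adjusted p = 0.0664) and Car13, Brg1-Apc deficient minus Apc deficient (0.78, adjusted p = 0.0732). Median centring moved the median of all probes in Apc deficient against Brg1 deficient from -0.09 to 0.04, and no other scaling moved a median by more. Signal near background limits Car3, Car15 and the dimmer Car9 probes.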
